A study of Homo sapiens with 21 samples.

Results

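Ribosome assembly starts in the nucleolus, where RNA polymerase I transcribes the long precursor of the ribosomal RNAs. Small nucleolar ribonucleoproteins then modify chosen bases of that precursor, a large complex called the small subunit processome folds and cuts the part that becomes the small subunit, and a separate set of factors matures the large subunit. Kidney tubule cells, like other dividing or growing cells, need this pathway to supply new ribosomes. The genes described here are those of the mRNA count table whose symbols start with UTP, NOP, NOL, RRP or POLR1 followed by a digit or letter, together with FBL, NCL, NPM1, DKC1, RRN3 and UBTF. The rule took 40 genes by symbol and 6 by name, 46 of the 23368 genes in the table. Most of them encode RNA polymerase I subunits or assembly factors. Of the genes taken by symbol, 3 have another function: NOL3, an apoptosis repressor, NOL4, and NOP14-AS1, an antisense transcript of the NOP14 locus.

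The study treated HK-2, an established human cell line immortalised from the kidney proximal tubule, with cyclosporine A, a calcineurin inhibitor used against transplant rejection that can damage the kidney. Poly(A)-selected mRNA was sequenced from 4 libraries of cells given cyclosporine A at 5 µg/mL for 48 h and from 4 libraries of cells given the vehicle, 0.1% ethanol, for the same time. Sites bound by Argonaute, the protein that carries microRNAs, were mapped by PAR-CLIP (crosslinking of protein to RNA labelled with 4-thiouridine, here at 100 µM). An antibody to AGO2 was used on 2 cyclosporine A and 2 vehicle samples treated for 24 h, and an antibody to all Argonautes on 1 sample, whose labels do not say whether it had cyclosporine A or vehicle. All groups share the cell line and its serum-free medium with epidermal growth factor and pituitary extract. No label states whether each library had a culture of its own, so the p-values here speak of variation among libraries, part or all of which could be technical.

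The mRNA libraries held 4289120 to 7041604 counts with vehicle and 3965431 to 5001669 with cyclosporine A. Of 12 markers of kidney tubule epithelium, 10 were expressed enough to be tested, among them PAX8, KRT8 and KRT18. Of 9 markers of the differentiated proximal tubule only SLC5A2 was, and HNF4A, SLC22A6 and SLC22A8 had no read in any library. Of 5 immune markers only CD14 was tested, and it was lower with cyclosporine A (44, 39, 41 and 35 counts with vehicle, then 9, 9, 2 and 0). The summed level of the 5 was 6.53 to 9.04 CPM (counts scaled to a common library size) with vehicle and 0 to 2.20 CPM with cyclosporine A. None of 5 endothelial markers was tested. The summed level of the 5 fibroblast and podocyte markers was 105 to 120 CPM with vehicle and 47.6 to 59.2 CPM with cyclosporine A. That of the epithelial markers was 2524 to 2604 CPM and 2203 to 2343 CPM. The part of these shifts in the results below was not tested.

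Most ribosome biogenesis transcripts were more abundant after cyclosporine A, each by a modest amount. Of the 45 genes that passed the filter on low counts, 28 were higher with cyclosporine A at an adjusted p under 0.05 (edgeR's quasi-likelihood test, Benjamini-Hochberg adjustment over all genes), 4 were lower and 13 were not called. Over all 12855 genes tested, 33.3% were called higher and 33.5% lower. NOL4 had 2 reads in all libraries together and was not tested. The median log2 fold change of the 45 genes was 0.32, with quartiles at 0.15 and 0.56, whereas that of all genes was -0.0022, with quartiles at -0.42 and 0.35. The changes ran from -0.47 for RRP7B to 0.84 for RRP12, so none of the 45 moved by a factor of 2. Among all genes tested, 567 rose by at least that factor.

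In 24 of the 45 genes every cyclosporine A library lay above every vehicle library, an arrangement found in 29.0% of all genes tested. In 4 genes every cyclosporine A library lay below, against 28.9% of all genes. The summed level of the 45 tested genes was 2407, 2539, 2553 and 2576 CPM in vehicle libraries 1 to 4. In cyclosporine A libraries 1 to 4 it was 3323, 3243, 3172 and 3196 CPM. The groups did not overlap in this sum, nor without nucleolin, the most counted gene of the set (2007 to 2110 CPM against 2548 to 2640 CPM). In raw counts the set took 0.241% to 0.266% of a vehicle library and 0.311% to 0.323% of a cyclosporine A library. The libraries are bulk RNA, so a rise in every cell and a larger number of cells with a high level cannot be told apart, and CPM is a share of the library rather than a number of molecules per cell.

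**Figure D1:**
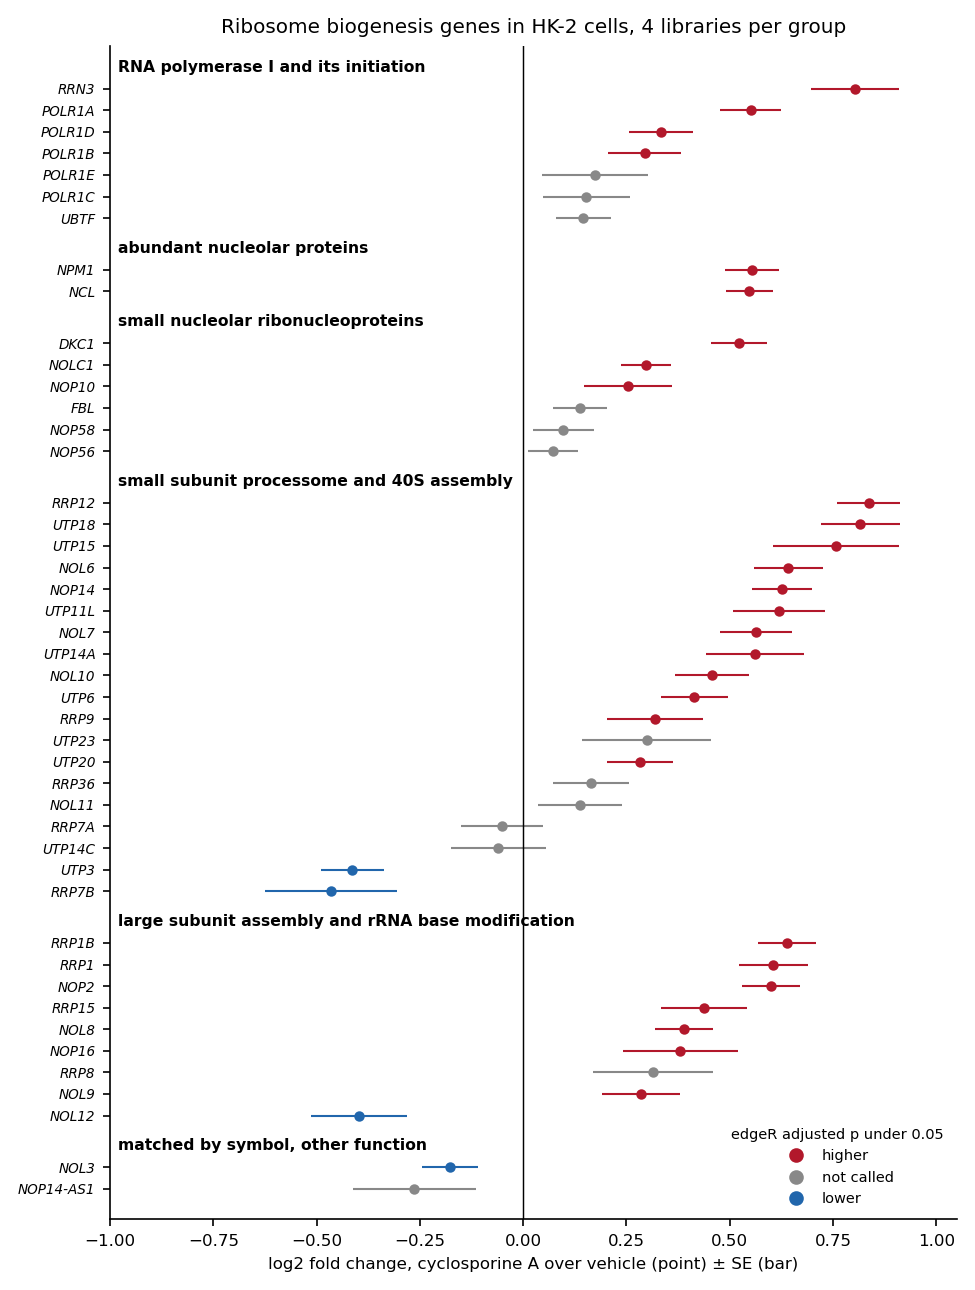
Log2 fold change of each tested ribosome biogenesis gene, cyclosporine A over vehicle (point, x axis) with its standard error (bar), grouped by role, from 4 libraries per group. Points right of the line are higher with cyclosporine A: 28 are called higher, 4 lower and 13 not called.

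Promoter sequence was examined because so many of the genes rose together. The E-box CACGTG is the hexamer that MYC, paired with MAX, is known to bind, and other factors bind it too. It was sought in RefSeq promoters of GRCh38.p14, from 250 bases before to 50 bases after each gene start. A promoter was found for 38 of the 46 genes, 1 of them by an older symbol. The promoters of 11 of the 38 held the E-box (28.9%), against 12.8% of 10135 tested genes with a promoter and 7.26% of all 35116 promoters. The palindrome reads the same on both strands. Each of its occurrences is shown with up to 12 bases on either side, in the direction of transcription, with the E-box in capitals.

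UTP18, chr17:51260445-51260474, plus strand: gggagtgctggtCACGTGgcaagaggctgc
UTP18, chr17:51260538-51260567, plus strand: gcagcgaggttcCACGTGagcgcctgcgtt
NOL6, chr9:33473894-33473923, minus strand: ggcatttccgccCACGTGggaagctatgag
NOP14, chr4:2963374-2963403, minus strand: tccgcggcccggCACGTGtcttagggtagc
NOL7, chr6:13615174-13615203, plus strand: gcctgcgctggcCACGTGgaaagaaacacg
UTP14A, chrX:129905914-129905940, plus strand: accttgggcCACGTGgaaaccaggggc
RRP9, chr3:51941892-51941921, minus strand: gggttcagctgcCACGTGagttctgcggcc
UTP20, chr12:101280083-101280112, plus strand: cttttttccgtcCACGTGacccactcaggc
NOP2, chr12:6568242-6568268, minus strand: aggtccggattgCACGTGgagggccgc
NOL8, chr9:92325342-92325371, minus strand: gctccgttgggaCACGTGaccagaagttag
NOP10, chr15:34343289-34343318, minus strand: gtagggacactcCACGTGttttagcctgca
NOP10, chr15:34343130-34343159, minus strand: gaaattgacgaaCACGTGacgcggtcgggc
FBL, chr19:39846356-39846385, minus strand: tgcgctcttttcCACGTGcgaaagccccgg

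Of the 11 genes with an E-box, 10 were called higher, none lower, and FBL was not called. Of the 27 without one, 14 were called higher and 3 lower. These 27 include NOL4, which was not tested, and NOL3 and NOP14-AS1, which also have another function. NOL3 is among the 3 called lower. Across all tested genes with a promoter, 42.8% of those with an E-box and 33.2% of those without were called higher. The shares called lower were 27.2% and 33.7%. UTP18 and NOP10 each held a pair of E-boxes. In 9 of the 11 genes an E-box began within 30 bases before or 50 bases after the gene start, at 5 in UTP18, 7 in FBL, 14 in NOL6, 16 in NOP14, 36 in NOP2, -5 in RRP9, -9 in NOL8, -10 in UTP20 and -11 in NOP10. Only 26.6% of all promoters with an E-box had one in that stretch, which makes up 26.7% of a promoter. The stretch was chosen after the positions were seen.

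Other motifs were searched on both strands. CGGAAG, the core bound by ETS factors, lay in 20 of the 38 promoters (52.6%), against 38.7% of tested genes and 19.5% of all promoters. Of these 20 genes 14 were called higher and 2 lower, and of the 18 without it 10 and 1. Across all tested genes, 36.9% with it and 32.9% without were called higher, and 29.0% and 35.3% lower. CCAAT lay in 14 (36.8%), against 43.1% and 34.6%. Of these 14 genes 10 were called higher and none lower, and of the 24 without it 14 and 3. Across all tested genes, 32.2% with it and 36.2% without were called higher, and 34.7% and 31.5% lower. TATAAA lay in the promoter of UTP20 alone (2.63%), against 7.95% and 11.5%. A match describes these letters and not a bound site.

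**Figure D2:**
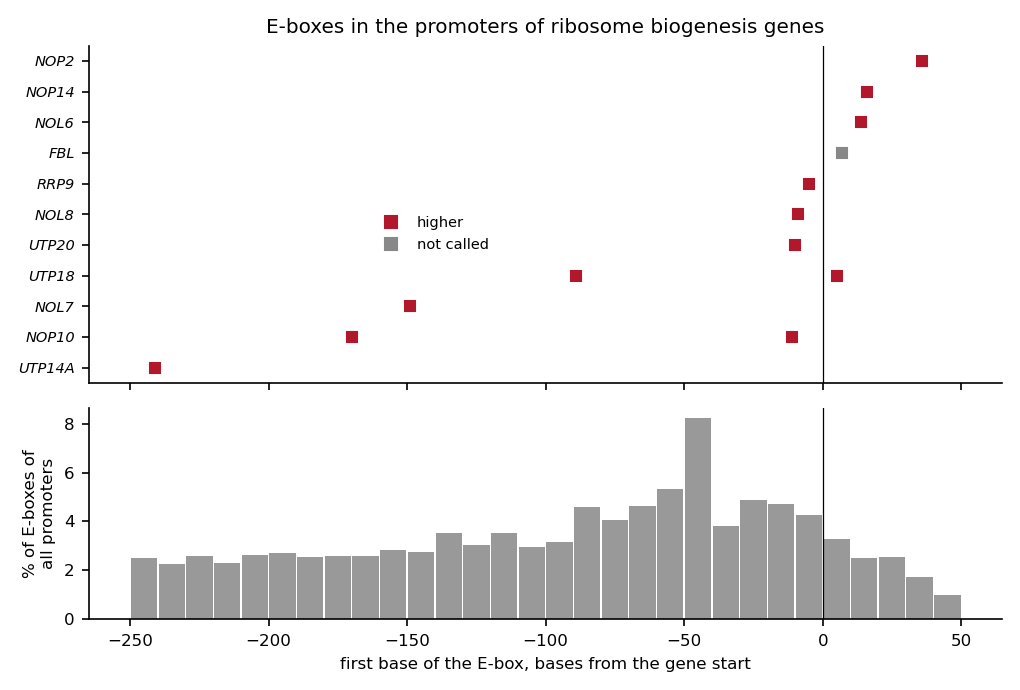
Position of each CACGTG hexamer in the promoters of 11 ribosome biogenesis genes (top, first base relative to the gene start, coloured by call) and the share of all E-boxes in RefSeq promoters per 10 bases (bottom, % of E-boxes). In 9 of the 11 genes an E-box lies between -30 and 50, and the bottom panel shows how E-boxes of all promoters spread.

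Of the 7 genes of RNA polymerase I and its initiation, 4 rose, none fell and 3 were not called, with a median log2 fold change of 0.29. RRN3, the factor that lets the polymerase start at ribosomal DNA promoters, measured 16.0, 16.9, 16.9 and 19.0 CPM with vehicle and 26.5, 32.0, 30.1 and 31.2 CPM with cyclosporine A. Its groups stood well apart, with a log2 fold change of 0.80 ± 0.11 (SE) and an adjusted p of 2.76e-09 by edgeR. POLR1A, the largest catalytic subunit, measured 48.1, 49.0, 46.8 and 48.8 CPM with vehicle and 72.6, 71.1, 69.7 and 68.8 CPM with cyclosporine A. The libraries within each group were close together and the groups did not overlap (log2 fold change 0.55 ± 0.07, adjusted p = 2.95e-09 by edgeR).

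POLR1B, the other large subunit of the catalytic core, measured 34.2, 33.1, 29.4 and 35.5 CPM with vehicle and 42.0, 38.3, 40.5 and 41.4 CPM with cyclosporine A. Every treated library was above every vehicle library, by a smaller margin (0.29 ± 0.09, adjusted p = 0.00301 by edgeR). POLR1D, a subunit that RNA polymerase I shares with RNA polymerase III, measured 57.3, 56.3, 54.2 and 66.6 CPM and then 81.5, 71.6, 75.7 and 64.9 CPM. Vehicle library 4 and cyclosporine A library 4 overlapped, and the gene was still called higher (0.33 ± 0.08, adjusted p = 0.000149 by edgeR).

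The remaining 3 genes of this role were not called. POLR1C, the partner of POLR1D in both polymerases, measured 24.5, 26.3, 22.4 and 25.1 CPM and then 29.2, 28.3, 30.1 and 21.2 CPM. Cyclosporine A library 4 was the lowest of all 8, and the log2 fold change was 0.15 with a 95% interval of -0.05 to 0.36 (adjusted p = 0.198 by edgeR). Without that library it was 0.25 and passed (edgeR adjusted p = 0.0340, where the alternatives ranged from 0.0340 to 0.416). POLR1E, a subunit particular to RNA polymerase I, measured 15.2, 15.8, 14.6 and 15.1 CPM and then 20.8, 13.4, 16.6 and 17.4 CPM. The treated libraries spread to both sides of the vehicle ones, with an interval of the log2 fold change of -0.08 to 0.43 (adjusted p = 0.227 by edgeR). UBTF, the protein that coats active ribosomal DNA, measured 91.9, 95.5, 89.8 and 82.2 CPM and then 96.5, 108, 95.01 and 99.2 CPM. Its groups overlapped slightly, the log2 fold change was 0.15 with an interval of 0.01 to 0.28, and the adjusted p was 0.0521 by edgeR. It passed without vehicle library 1 or 2 or cyclosporine A library 1 or 3 (edgeR adjusted p of 0.0489, 0.0359, 0.0450 and 0.0328, and up to 0.213 over all alternatives).

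Both abundant nucleolar proteins of the set rose. NCL, nucleolin, which binds the ribosomal RNA precursor and ribosomal DNA, measured 399.8, 455, 449 and 467 CPM with vehicle and 683, 633, 624 and 644 CPM with cyclosporine A. The lowest treated library was well above the highest vehicle library, with a log2 fold change of 0.55 ± 0.06 (adjusted p = 2.42e-12 by edgeR). NPM1, nucleophosmin, a chaperone that forms the outer layer of the nucleolus, measured 82.7, 83.4, 88.1 and 95.5 CPM and then 129.99, 137, 119 and 126 CPM. Its groups also stood apart, with a log2 fold change of 0.55 ± 0.07 (adjusted p = 1.25e-10 by edgeR). NPM1 has many processed pseudogenes, and how reads shared with them were counted is not given in the sources used here.

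Of the 6 genes of small nucleolar ribonucleoproteins, 3 rose and 3 were not called, with a median log2 fold change of 0.20. DKC1, dyskerin, the enzyme that turns chosen uridines into pseudouridine in box H/ACA particles, measured 75.3, 78.8, 80.2 and 86.9 CPM with vehicle and 121, 111, 121 and 107 CPM with cyclosporine A. Its groups did not overlap (0.52 ± 0.07, adjusted p = 1.12e-09 by edgeR). NOLC1, which helps these particles assemble and reach the nucleolus, measured 173, 195, 195 and 201 CPM and then 237, 241, 233 and 223 CPM. It too was higher in every treated library (0.30 ± 0.06, adjusted p = 1.74e-05 by edgeR). NOP10, a small core protein of box H/ACA particles, measured 22.1, 23.7, 25.4 and 33.0 CPM and then 33.1, 28.1, 32.0 and 28.6 CPM.

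Vehicle library 4 alone lay among the treated libraries for NOP10. The gene was called higher at 0.25 ± 0.11 (adjusted p = 0.0311 by edgeR), but this did not hold with DESeq2 (adjusted p = 0.0971) or with total count scaling in edgeR (adjusted p = 0.0977). It was also lost without vehicle library 1, 2 or 3 or cyclosporine A library 1 or 3 (edgeR adjusted p of 0.172, 0.0979, 0.0539, 0.104 and 0.0634; lowest over the alternatives 0.00176).

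FBL, NOP56 and NOP58, proteins of the box C/D particles that methylate ribosomal RNA riboses, were not called. FBL, fibrillarin, the methyltransferase, measured 138, 148, 165 and 171 CPM with vehicle and 179, 172, 157 and 173 CPM with cyclosporine A. Cyclosporine A library 3 fell within the vehicle range, and the log2 fold change was 0.14 with an interval of 0.01 to 0.26 (adjusted p = 0.0552 by edgeR). FBL passed without vehicle library 3 or 4 or cyclosporine A library 3 (edgeR adjusted p of 0.0338, 0.00975 and 0.0183), and with no filter on low counts (0.0425), while the highest value over the alternatives was 0.271.

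NOP58, a scaffold of the same particles, measured 58.0, 59.3, 58.0 and 56.5 CPM with vehicle and 61.9, 62.8, 62.6 and 60.9 CPM with cyclosporine A. All treated libraries lay above all vehicle libraries, but the step was small (0.10, interval -0.05 to 0.24, adjusted p = 0.237 by edgeR). NOP56, its partner, measured 161, 172, 172 and 155 CPM and then 179, 175, 178 and 163 CPM, with overlapping groups (0.07, interval -0.05 to 0.19, adjusted p = 0.288 by edgeR).

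**Figure D3:**
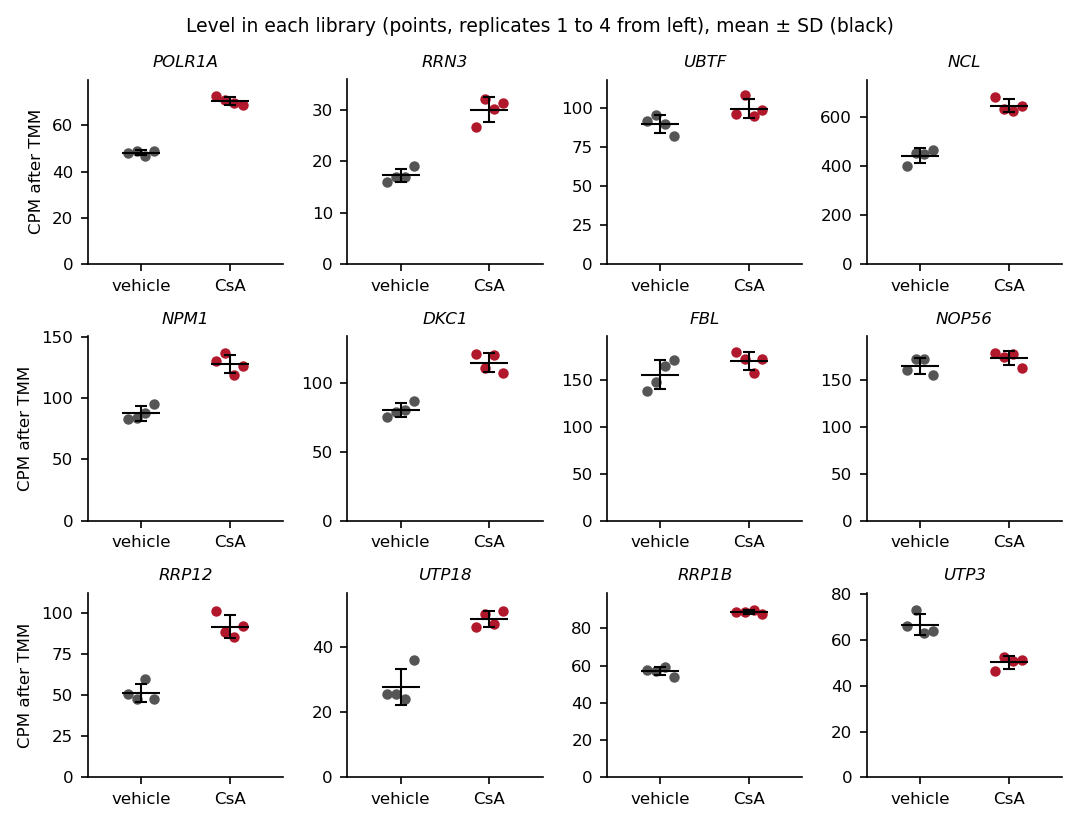
Level of 12 ribosome biogenesis genes in each library (points, CPM after TMM scaling, y axis from 0), for 4 vehicle and 4 cyclosporine A (CsA) libraries, with mean ± SD in black. POLR1A, RRN3, NCL, NPM1, DKC1, RRP12, UTP18 and RRP1B separate upwards, UTP3 separates downwards, and UBTF, FBL and NOP56 overlap.

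The small subunit processome and related factors made up the largest role, with 19 genes, of which 12 rose, 2 fell and 5 were not called, at a median log2 fold change of 0.41. RRP12, a repeat protein needed to release and export both ribosomal subunits, measured 50.9, 48.0, 59.7 and 47.9 CPM with vehicle and 101, 88.9, 85.4 and 92.1 CPM with cyclosporine A. It had the largest rise of the set, with groups far apart (0.84 ± 0.08, adjusted p = 1.53e-14 by edgeR). UTP18, a member of the UTP-B module of the processome, measured 25.7, 25.6, 23.9 and 35.9 CPM and then 46.1, 50.1, 46.9 and 50.9 CPM. Vehicle library 4 was higher than the other vehicle libraries, and still below every treated one (0.82 ± 0.10, adjusted p = 7.8e-11 by edgeR). UTP15, of the UTP-A module that also acts in transcription of the precursor, measured 8.23, 6.99, 8.47 and 10.8 CPM and then 13.2, 16.6, 12.7 and 15.6 CPM.

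For UTP15 the groups did not overlap, with a larger error because the gene had few counts (0.76 ± 0.15, adjusted p = 1.87e-05 by edgeR). NOL6, of the UTP-C module, measured 39.4, 42.3, 47.0 and 35.2 CPM and then 66.0, 66.9, 56.4 and 66.7 CPM. Cyclosporine A library 3 was lower than the other treated ones and above all vehicle libraries (0.64 ± 0.08, adjusted p = 1.32e-09 by edgeR). The other 8 genes that rose were NOP14, UTP11L, NOL7, UTP14A, NOL10, UTP6, RRP9 and UTP20, with log2 fold changes from 0.63 for NOP14 down to 0.28 for UTP20. Of these, only RRP9, a protein bound to the U3 small nucleolar RNA, had overlapping groups (15.5 to 19.9 CPM against 19.3 to 23.5 CPM).

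UTP3, a processome protein also known as SAS10, went the other way, at 66.1, 73.2, 63.1 and 63.9 CPM with vehicle and 46.3, 52.5, 50.6 and 51.4 CPM with cyclosporine A. Every treated library was below every vehicle library (-0.41 ± 0.08, adjusted p = 4.92e-06 by edgeR). RRP7B, a copy of RRP7A regarded as a pseudogene, measured 10.6, 11.2, 14.0 and 10.4 CPM and then 8.23, 9.53, 6.90 and 8.69 CPM. Its groups did not overlap (-0.47 ± 0.16, adjusted p = 0.00889 by edgeR), and it missed the threshold without vehicle library 3 (edgeR adjusted p = 0.0534, lowest over the alternatives 0.00396). RRP7A itself, which binds the precursor near the growing small subunit, measured 28.8, 34.0, 33.7 and 29.8 CPM and then 26.9, 26.9, 32.9 and 35.3 CPM. The groups overlapped fully, with an interval of -0.25 to 0.14 (adjusted p = 0.665 by edgeR).

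UTP14A and UTP14C are another parent and copy. UTP14A, which helps start the late steps of the processome, rose from 18.2, 18.0, 18.8 and 23.0 CPM to 37.2, 27.6, 24.2 and 24.0 CPM, without overlap and with a wide spread among treated libraries (0.56 ± 0.12, adjusted p = 3.82e-05 by edgeR). UTP14C, its retrotransposed copy, measured 19.9, 20.8, 23.1 and 19.4 CPM and then 23.7, 18.3, 19.3 and 17.6 CPM, with an interval of -0.29 to 0.17 (adjusted p = 0.657 by edgeR). Both pairs have near-identical stretches, so the split of counts between parent and copy is uncertain. The other genes of this role that were not called were UTP23, RRP36 and NOL11, with log2 fold changes of 0.30, 0.16 and 0.14. Without cyclosporine A library 3, UTP23 passed at an adjusted p of 0.04998 and RRP36 at 0.0385 (edgeR), and UTP23 also did without cyclosporine A library 2 (0.0280). Over the alternatives their highest adjusted p values were 0.333 and 0.390.

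Of the 9 genes of large subunit assembly and base modification, 7 rose, 1 fell and 1 was not called, at a median log2 fold change of 0.39. RRP1B, a nucleolar processing factor, measured 57.7, 57.1, 59.3 and 54.0 CPM with vehicle and 89.1, 88.7, 90.0 and 87.7 CPM with cyclosporine A. Its libraries were tightly grouped and far apart (0.64 ± 0.07, adjusted p = 8.38e-12 by edgeR). RRP1, its paralog, measured 32.8, 32.9, 33.2 and 33.4 CPM and then 49.8, 54.7, 48.5 and 48.3 CPM, again without overlap (0.61 ± 0.08, adjusted p = 7.77e-09 by edgeR). NOP2, which methylates a cytosine of the large ribosomal RNA, measured 69.1, 70.9, 74.9 and 58.5 CPM and then 104, 99.2, 110.2 and 102 CPM. The lowest treated library was well above the highest vehicle library (0.60 ± 0.07, adjusted p = 9.05e-11 by edgeR).

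RRP15, which takes part in maturing the large subunit precursor, measured 22.4, 24.8, 18.8 and 27.1 CPM and then 30.4, 31.0, 29.0 and 35.8 CPM, without overlap (0.44 ± 0.10, adjusted p = 0.000242 by edgeR). NOL8, NOP16 and NOL9 were also called higher, at 0.39 ± 0.07, 0.38 ± 0.14 and 0.29 ± 0.09. NOL9 is a kinase that acts on the ends of cut precursor, and its groups overlapped, as did those of NOP16. NOP16 missed the threshold without vehicle library 1 (edgeR adjusted p = 0.0606; lowest over the alternatives 0.0042).

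RRP8, which methylates an adenine of the large ribosomal RNA and is also known from a silencing complex at ribosomal DNA, measured 9.79, 9.75, 10.2 and 11.1 CPM and then 13.4, 12.9, 10.6 and 13.6 CPM. Cyclosporine A library 3 lay within the vehicle range, and the adjusted p was 0.0527 by edgeR (0.31, interval 0.03 to 0.60). RRP8 passed without that library or without vehicle library 4 (edgeR adjusted p of 0.0227 and 0.0406; highest over the alternatives 0.128). NOL12, an RNA-binding protein needed to separate the precursors of both subunits, fell, from 21.1, 20.2, 20.7 and 19.6 CPM to 16.7, 14.7, 15.4 and 15.3 CPM. All treated libraries lay below all vehicle ones (-0.40 ± 0.12, adjusted p = 0.00245 by edgeR).

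The 2 tested genes of other function were not called higher. NOL3 measured 98.6, 98.8, 92.9 and 95.7 CPM with vehicle and 84.5, 78.7, 86.7 and 92.3 CPM with cyclosporine A, just without overlap (-0.18 ± 0.07, adjusted p = 0.0180 by edgeR). Its call was lost without vehicle library 2 or cyclosporine A library 2 (edgeR adjusted p of 0.0554 and 0.109; lowest over the alternatives 0.00259). NOP14-AS1 measured 16.0, 12.7, 14.2 and 10.2 CPM and then 13.6, 11.0, 9.66 and 10.5 CPM. Its groups overlapped (-0.26, interval -0.56 to 0.03, adjusted p = 0.114 by edgeR), and it passed without vehicle library 4 or cyclosporine A library 1 (0.0337 and 0.0402; highest over the alternatives 0.457). The strand setting of the counting is not given in the sources used here. Where NOP14 and NOP14-AS1 overlap, their reads therefore cannot be told apart. Without the genes of other function, 28 of 43 tested genes were higher and 3 lower. Those 3 were UTP3, NOL12 and RRP7B, the last a copy regarded as a pseudogene.

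Ratios of raw counts within a library do not depend on how libraries are scaled. The pairs below were chosen after their values were seen and carry no test. The ratio of POLR1A to POLR2A, the largest subunits of RNA polymerases I and II, ran from 0.285 to 0.298 in the vehicle libraries and from 0.499 to 0.566 in the treated ones. POLR2A was itself called lower (log2 fold change -0.30), so this ratio holds a rise of POLR1A and a fall of POLR2A. RRN3 to UBTF went from 0.174 to 0.231 up to 0.275 to 0.317, and DKC1 to FBL from 0.487 to 0.546 up to 0.619 to 0.768. Thus the groups did not overlap in any of the 3 ratios. NCL to FBL was 2.72 to 3.07 with vehicle and 3.68 to 3.98 with cyclosporine A. UTP18 to UTP3, a riser against a faller of the same complex, was 0.349 to 0.562 and then 0.927 to 0.996. NOP14 to its antisense transcript was 3.37 to 5.60 and then 6.70 to 8.66. For the copies, UTP14A to UTP14C moved from 0.817 to 1.19 up to 1.25 to 1.57, whereas RRP7A to RRP7B overlapped, at 2.41 to 3.03 and 2.82 to 4.77.

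**Figure D4:**
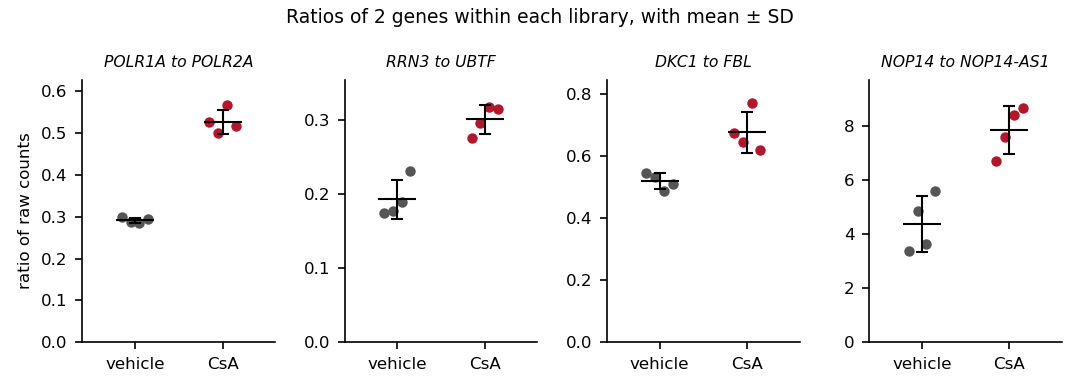
Ratio of the raw counts of 2 genes within each library (y axis, from 0) for 4 vehicle and 4 cyclosporine A (CsA) libraries, with mean ± SD in black. In all 4 pairs shown the treated libraries lie above the vehicle libraries. For POLR1A to POLR2A they lie at 0.499 to 0.566 against 0.285 to 0.298, where POLR1A was called higher and POLR2A lower.

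Other genes of the pathway and genes related to it were read from lists, 185 genes in all. The lists also cover RNA polymerases II and III, ribosomal DNA chromatin and the MYC and mTOR network. Of the 185, 121 were called higher, 14 lower and 50 not at all, beside 33.3% and 33.5% of all genes. Of 39 other factors of the small subunit, 31 rose and 1 fell, IMP3, a protein of the U3 particle (29.6 ± 2.10 CPM to 20.9 ± 2.71 CPM, mean ± SD, n = 4 in this paragraph). The strongest by p-value were WDR43, DIEXF, TSR1 and ESF1, with log2 fold changes of 1.04, 0.93, 0.59 and 0.74. WDR43, a processome protein of the UTP-A module, went from 61.7 ± 2.09 CPM to 127 ± 10.8 CPM. Of 52 other factors of the large subunit, 41 rose and none fell. The strongest were DDX21, RSL1D1, NMD3 and DDX24, at 0.84, 0.98, 1.01 and 0.70. NMD3, the adaptor that carries the large subunit out of the nucleus, went from 32.5 ± 5.02 CPM to 65.0 ± 4.43 CPM. The medians of these lists, 0.52 and 0.47, were above that of the 45 genes.

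Other factors of RNA polymerase I did not move as one. Of 15, 6 rose, 1 fell and 8 were not called, with a median of 0.08. The list includes POLR2E, POLR2F, POLR2H, POLR2K, POLR2L and TBP, which also serve RNA polymerases II and III. Of these only POLR2F was called, and it was higher. TCOF1, treacle, which links RNA polymerase I to precursor processing, rose by 0.58 ± 0.06. The subunits of SL1, the promoter selectivity complex, were split. TAF1A and TAF1D rose by 0.82 ± 0.12 and 0.59 ± 0.08, and TAF1C fell by 0.59 on the log2 scale (148 ± 8.56 CPM to 98.2 ± 3.41 CPM, mean ± SD, n = 4). TAF1B and TBP, also of SL1, were not called. Of 11 other factors of small nucleolar particles, 5 rose and 1 fell (median 0.22). NHP2L1, a core protein of box C/D particles, rose by 0.74 ± 0.07, and PIH1D1, of the chaperone complex that assembles them, fell by 0.44. The assembly factors ZNHIT6 and NUFIP1 rose by 0.54 and 0.85.

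Of 17 genes of the RNA exosome, which trims precursor ends and degrades spacers, 12 rose and 1 fell (median 0.31). EXOSC6 rose by 1.28 ± 0.08, DIS3, a catalytic subunit, by 0.61, EXOSC5 by 0.59 and the cofactor ZCCHC7 by 0.67. RNA polymerase III, which makes the remaining ribosomal RNA and the transfer RNAs, had 7 of 15 listed genes higher and 2 lower (median 0.29). POLR3A rose by 0.95 ± 0.06, POLR3D by 1.31 ± 0.09, BDP1 by 0.63 and POLR3E by 0.69. In RNA polymerase II, which makes mRNA, 2 of 7 core subunits were higher and 2 lower (median 0.04). POLR2I and POLR2C rose by 0.60 and 0.40, and POLR2A and POLR2D fell by 0.30 and 0.42.

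Among 9 regulators of ribosomal DNA chromatin 4 rose and 2 fell (median 0.10). SIRT1 and KDM2A rose by 0.63 and 0.45, and KDM2B and SUV39H1 fell by 0.40 and 0.64. SIRT1 and SUV39H1 are known partners of RRP8 in the silencing complex at ribosomal DNA. Of 20 genes of the MYC and mTOR network, which sets the rate of ribosome production in many cells, 13 rose and 4 fell (median 0.25). MYC measured 307, 293, 300.2 and 300.1 CPM with vehicle and 762, 724, 641 and 728 CPM with cyclosporine A. All treated libraries were far above the vehicle ones (1.25 ± 0.06, adjusted p = 1.18e-26 by edgeR). MXD1, which competes with MYC for MAX, rose as well (1.28 ± 0.11). EIF4EBP1, a brake on translation that mTOR releases, rose by 1.24 ± 0.08, and DEPTOR, an inhibitor of mTOR, fell by 1.37.

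**Figure D5:**
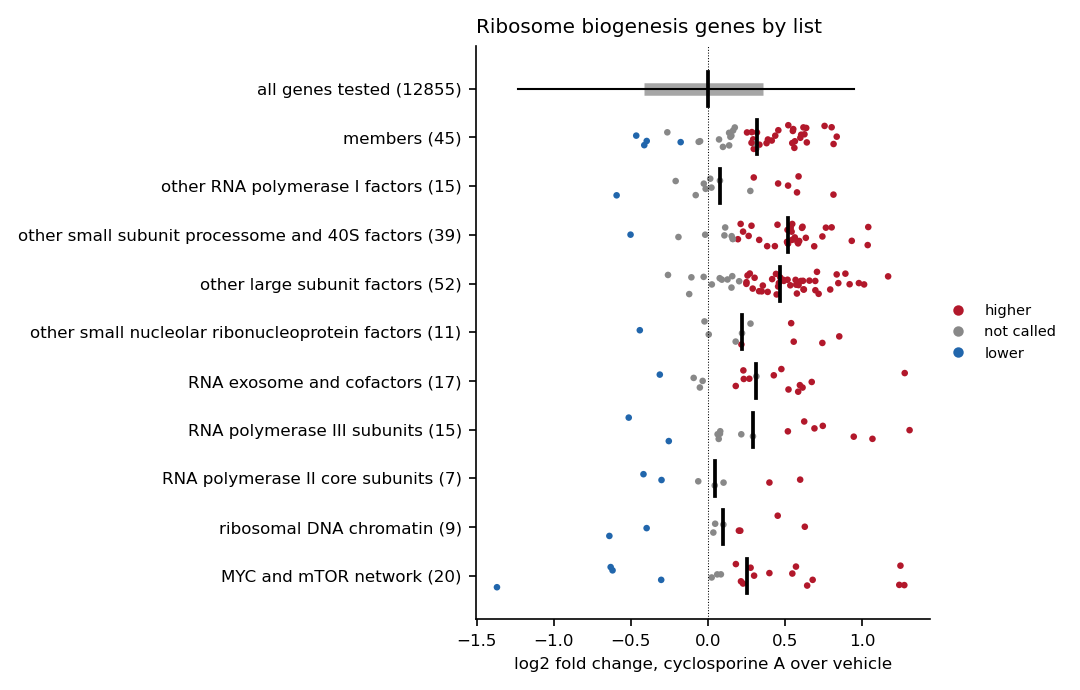
Log2 fold change, cyclosporine A over vehicle (x axis), of each tested gene (points) in the ribosome biogenesis set, labelled members, and in other lists. The other lists hold genes of the pathway and genes related to it. List medians are black ticks and numbers tested are in brackets. The top bar shows all genes tested (thick, 25th to 75th percentile; thin, 5th to 95th): the median of the set is 0.32 and that of all genes -0.0022.

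The authors' deposited table of the same libraries gave 26 of the genes as higher and 2 as lower, where 25.9% and 25.6% of its 15518 genes with an adjusted p were higher and lower. The sign was the same in 45 of 45 genes and the call in 41. The 4 genes called here and not in the authors' deposited table were NOP10, NOP16, NOL3 and RRP7B, whose adjusted p there was 0.0994, 0.0534, 0.0613 and 0.0505.

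Argonaute clusters, the short stretches of RNA crosslinked to Argonaute, were listed for some of these genes. The AGO2 list from vehicle cells held 37 clusters assigned to 20 of the 46 genes, out of 56985 clusters in all. The AGO2 list from cyclosporine A cells held 13 in 6 genes, out of 36812, and the list for all Argonautes 8 in 7 genes, out of 19306. In the same order the lists named 11869, 9355 and 6123 genes in all, beside 23368 genes in the mRNA count table. Each list pools its libraries and the lists differ in size, so the numbers were not compared by a test. Shares of clusters on these genes were 0.0649%, 0.0353% and 0.0414%. In the files' annotation 26, 12 and 6 of them lay in introns (70.3%, 92.3% and 75%), against 42.4%, 42.6% and 42.8% of all clusters in the lists. By that annotation 1 cluster of the 58, on NOLC1 in the list for all Argonautes, lay in the end region after the stop codon. The share of all clusters in that region was not computed, so whether this count is low for these lists is not known. Where the gene's strand was known, 19 clusters lay on the sense and 21 on the antisense strand. It was not known for 11, 4 and 3 clusters of the lists, and the split over all clusters was not computed. NOL4, with 2 mRNA reads in all, carried 5, 4 and 2 clusters.

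The vehicle and cyclosporine A lists of AGO2 shared 6 of these clusters by 1 base or more on 1 strand, 16.2% of the vehicle and 46.2% of the cyclosporine A ones. Over all genes, 31.1% of the vehicle and 48.3% of the cyclosporine A clusters were shared in the same way. The 6 lay on POLR1E, POLR1A, UTP20, NOL10 and, at 2 places, NOL4. All 6 are shown as the files give them, on the build hg19, with the bases shared by both lists in capitals, because they were found under both treatments. All 6 were annotated as intronic, and those on UTP20 and POLR1A and 1 of those on NOL4 were antisense to the gene. The unit of the authors' peak score is not given in the sources used here and its median differed between the lists (44 with vehicle, 78 with cyclosporine A), so scores were not compared.

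POLR1E, vehicle, chr9:37486669-37486690, plus strand: cTCATCTCATTCTTGGGCTGCA
POLR1E, cyclosporine A, chr9:37486670-37486690, plus strand: TCATCTCATTCTTGGGCTGCA
UTP20, vehicle, chr12:101713778-101713796, minus strand: AATAGATCCTGAAATCCCA
UTP20, cyclosporine A, chr12:101713778-101713803, minus strand: ggactacAATAGATCCTGAAATCCCA
NOL10, both lists, chr2:10759081-10759098, plus strand: GCTTCTGGGAAACCAAAG
POLR1A, vehicle, chr2:86283631-86283647, plus strand: cTGATGAAGGTTGCCGC
POLR1A, cyclosporine A, chr2:86283632-86283648, plus strand: TGATGAAGGTTGCCGCa
NOL4, vehicle, chr18:31693081-31693101, minus strand: AAAAGTTGGGCTTAGTGGTCC
NOL4, cyclosporine A, chr18:31693080-31693101, minus strand: AAAAGTTGGGCTTAGTGGTCCg
NOL4, both lists, chr18:31769107-31769124, plus strand: GGCCAGCGTTGGATTAGG

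Of the genes with the largest rises, RRP12 had 2 vehicle clusters, at an intron and an exon, and UTP18 and RRN3 had none in any list. UTP3, which fell, had 2 exonic AGO2 clusters with vehicle and none in the other lists. Of these, 1 lay on the sense strand at chr4:71555006-71555029 (hg19). A sense exonic AGO2 cluster was also listed with vehicle on POLR1A, which rose, at chr2:86280078-86280102 (hg19). NOL12, RRP7B and NOL3, the other genes called lower, had no cluster in any list. Any link between clusters and changes in level was not tested.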

How the data were processed

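Messenger RNA of HK-2 cells was sequenced in 4 vehicle and 4 cyclosporine A libraries. The files the authors deposited hold raw counts of reads for each gene symbol, and a table of log2 fold changes, p-values, a mean signal and a test score per gene. They also deposited Argonaute clusters with a score per cluster and the cluster width (other), 1 list for AGO2 in each treatment and 1 for all Argonautes, per the file headers. The submitters' processing notes name CASAVA 1.8.2, cutadapt, Bowtie, TopHat, HTSeq, DESeq2 and the build hg19; the sources used here give neither their roles nor the strand setting. The microRNA files were not used here.

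Counts were tested with edgeR 4.0.16 (R 4.3.3): filterByExpr, TMM scaling, glmQLFit and glmQLFTest on group alone, with Benjamini-Hochberg adjustment over 12855 genes and calls at an adjusted p under 0.05. The test was checked on simulated data. SE is the log2 fold change over the square root of the F statistic, and intervals are 95% normal ones. CPM is after TMM, except in the summed levels of cell type markers, which were scaled by total counts alone. TMM factors were 1.00 to 1.04 with vehicle and 0.974 to 0.988 with cyclosporine A. 28 symbols altered to dates were kept. No 2 libraries of a group agreed within sampling noise (chi-square per degree of freedom at least 1.28). The members, their roles and all gene lists were chosen with earlier results of these data known. Values per library are given for the RNA polymerase I, nucleolar and small nucleolar genes, for the 4 largest rises and falls called in each other role and for the highest adjusted p of each role, and up to 4 genes of each pathway list by p-value, with MYC; UTP14A, UTP14C, IMP3 and the range of RRP9 were added after their values were seen. Alternatives were DESeq2 1.42.0, limma 3.58.1 with voom, RLE or total count scaling, no filter, a replicate block and each library left out. Promoters are from RefSeq.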

Additional observations from a re-analysis of the deposited data

Results flagged for a closer look

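In 90 groups of 4 libraries (45 genes, 2 groups each), 4 held a library far from the others by Dixon's test, and chance gives about 1 in 20. UTP18 was 35.9 CPM in vehicle library 4, where the nearest other vehicle library had 25.7 CPM. UTP14A was 23.0 CPM in the same library, with the nearest at 18.8 CPM. NOL6 was 56.4 CPM in cyclosporine A library 3, below the nearest at 66.0 CPM, and UTP11L was 23.2 CPM in cyclosporine A library 1, below the nearest at 29.1 CPM. All 4 genes were called higher in every alternative run, with log2 fold changes of 0.76 to 0.94 for UTP18, 0.39 to 0.64 for UTP14A, 0.59 to 0.71 for NOL6 and 0.55 to 0.71 for UTP11L.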

How the results depend on the processing

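Over the other tools, scalings, filters and left-out libraries, the number of ribosome biogenesis genes called higher ranged from 27 to 32 and lower from 3 to 5. DESeq2 gave 27 and 4 (all genes called: 7798, against 8597). The median log2 fold change of 0.32 became 0.27 with total count scaling and ran from 0.32 to 0.37 with 1 library left out. Total count scaling gave 2 lower genes among the other small subunit factors in place of 1. With 1 library left out, that count ran from 1 to 2, lower genes of the small subunit role from 1 to 2 and of other function from 0 to 2. RRP7A, not called, was 0.014 without cyclosporine A library 1 and 0.0064 without library 2, and its lowest value with 1 library left out was -0.12. With the upper part of the scores by the median, 11 genes had vehicle AGO2 clusters in place of 20, and 2 had all-Argonaute clusters in place of 7. The cause of these shifts was not tested, beyond the smaller number of samples or clusters. Replicate numbers did not pair the samples (correlations of same-numbered libraries -0.08, 0.01, -0.06 and 0.03); with the replicate number as a block, 28 genes were higher and 4 lower, and no replicate pairing was used. Clusters without counts have no known depth, and genes with few counts, 30 or more per library, had the largest errors (SE up to 0.16).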
